A study of Homo sapiens with 4 samples.

Results

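The genes described here encode 9 secreted proteins of the acute-phase response and of the complement system, SAA1, SAA2, ORM1, ORM2, CHI3L1, C1R, C1S, C3 and CFB, out of 58735 genes in the count table. They were taken from the table by Ensembl identifier, and each matched 1 row. The genes had been selected because of how they moved with mebendazole (MBZ) in these same libraries, so their levels and fold changes are a description and no test was applied to them.

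RNA was sequenced from MDA-MB-231 and SUM159 cells, human triple-negative breast cancer (TNBC) lines, after 72 h with 1 μM MBZ, an anthelmintic that binds tubulin, or with DMSO, its vehicle. Each of the 4 conditions had 1 library, so the spread between cultures is unknown, and every interval given is a 95% counting interval that covers counting error only. MDA-MB-231 cells were kept in DMEM and SUM159 cells in Ham's F12 with insulin and hydrocortisone, a glucocorticoid, so line and medium cannot be told apart. The labels name no genetic change in either line, and each line was sampled as a single culture per condition as far as they say.

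Acute-phase proteins are secreted mainly by the liver when interleukin 6, interleukin 1 and glucocorticoids act on hepatocytes, but epithelial, stromal and tumor cells can make them too. The complement system is a cascade of plasma proteases in which C1r and C1s start the classical pathway, C3 is the component on which all pathways meet, and factor B forms the protease of the alternative pathway with a fragment of C3. In bulk RNA, fewer cells that express a gene and less RNA per cell cannot be told apart.

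The 9 genes were each higher in SUM159 than in MDA-MB-231 cells with DMSO. After MBZ, SUM159 cells had lower levels of all 9, by between 2.21-fold for CFB and 35.1-fold for ORM1. In MDA-MB-231 cells, where levels were far lower, 6 of the 9 had enough counts to be compared, and 5 of these, SAA1, SAA2, C1S, C3 and CFB, were higher after MBZ. A gene was compared where the libraries of a line averaged 10 counts or more, and was counted as higher or lower where the change was at least 1.5-fold. By the same rule, 21.7% of the 15674 genes compared in SUM159 cells were lower and 21.5% higher, and in MDA-MB-231 cells 18.3% of 15142 were higher and 15.8% lower. Of the 6 genes compared in both lines, 5 had a counting interval wholly above 0 in MDA-MB-231 and wholly below 0 in SUM159 cells, a pattern seen in 9.40% of all 13733 genes so compared, and none had the reverse, seen in 10.6%. These shares stand beside the counts only as background, since the 9 genes were chosen on the same contrast.

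The libraries held 24897586 (MDA-MB-231, DMSO), 17143139 (MDA-MB-231, MBZ), 18708179 (SUM159, DMSO) and 18904501 (SUM159, MBZ) counts. At this depth 3 counts, the limit that a count of 0 allows, equal between 0.129 and 0.181 counts per 1000000 (CPM). Levels below are CPM scaled by the trimmed mean of M values (TMM) over the 4 libraries, and fold changes, also given as the log2 ratio of MBZ over DMSO, use TMM within a line. The median log2 ratio over all genes compared was -0.018 in MDA-MB-231 and -0.034 in SUM159 cells, and the median over the 9 genes was -2.69 in SUM159 cells. Over the 6 compared in MDA-MB-231 cells it was 1.31. Markers of the cell type were partly those of TNBC cells. KRT8, KRT18, VIM and CD44 had between 4197 and 54409 counts in every library, PGR was listed at 0 in all 4, and ESR1 had at most 2 counts in 3 of them and 18 in SUM159 cells with MBZ. KRT19 and EPCAM had at most 13 counts in SUM159 cells. Of the 6 carcinoma markers listed, 4 were lower with MBZ in MDA-MB-231 cells and 1 higher, or 2 lower when scaled by total counts, with KRT8 at 27089 and 11638 counts and VIM at 47253 and 20703, and the part of this in the result was not tested. ERBB2 had between 1216 and 1996 counts.

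**Figure D1:**
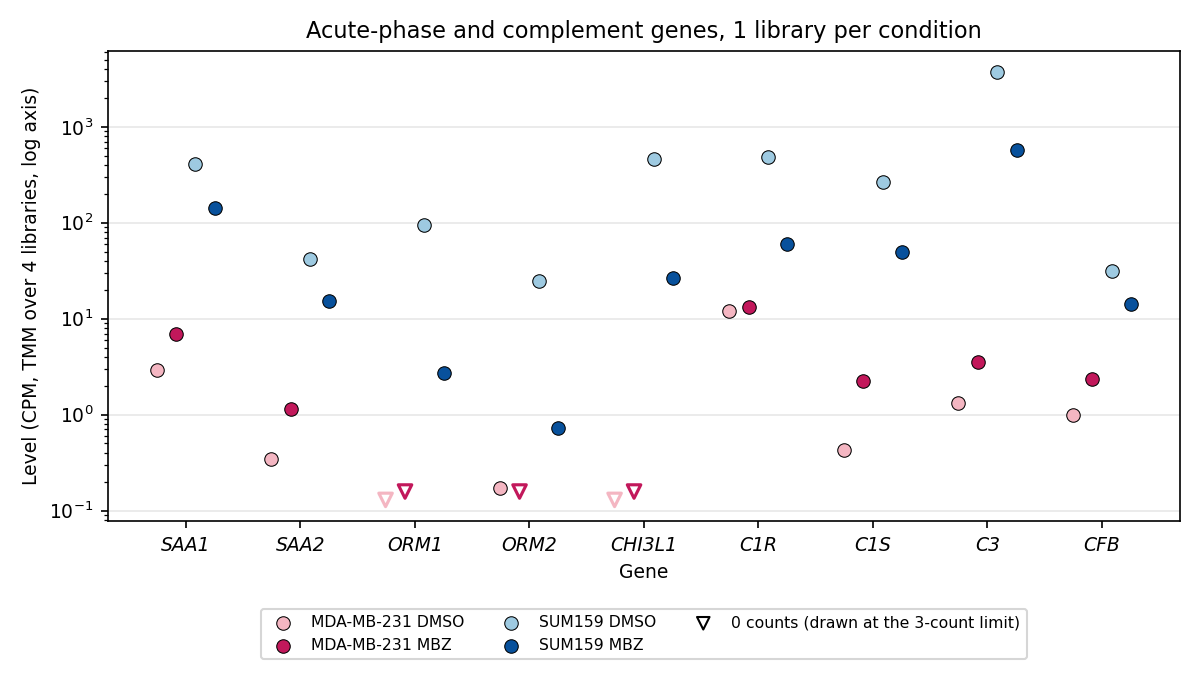
Level of each of the 9 genes in the 4 libraries, as CPM with TMM over the libraries on a log axis. Points are single libraries and open triangles are genes at 0 counts, drawn at the limit of 3 counts. The SUM159 library with DMSO is the highest for every gene, and C3 in it reaches 3713 CPM.

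Summed over the 9 genes, the level was 18.2 CPM in MDA-MB-231 cells with DMSO, 29.5 CPM with MBZ, 5525 CPM in SUM159 cells with DMSO and 884 CPM with MBZ. In the SUM159 DMSO library they held 0.489% of all counts, and with MBZ 0.0964%. C3 alone gave 67.2% and 64.9% of the counts of the 9 genes in the SUM159 libraries. Per kilobase of the canonical transcript, SAA1 had the highest level in SUM159 cells with DMSO at 791 CPM per kb, followed by C3 at 710, CHI3L1 at 263, C1R at 194, ORM1 at 125, C1S at 99.9, SAA2 at 72.2, ORM2 at 32.6 and CFB at 12.8. With MBZ the order of these levels per kilobase was SAA1, C3, SAA2, C1R, C1S, CHI3L1, CFB, ORM1 and ORM2, from 272 down to 0.958 CPM per kb. CHI3L1 went from the third place to the sixth and ORM1 from the fifth to the eighth. The level of CFB per kilobase may be too low, since 2249 of its 5312 exonic bases are shared with a readthrough gene, as described below.

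SAA1 and SAA2 encode serum amyloid A proteins, small apolipoproteins of high-density lipoprotein that are classical markers of inflammation. SAA1 (ENSG00000173432, 4 exons, chr11:18266260-18269977, plus strand, GRCh38) had 68 counts in MDA-MB-231 cells with DMSO, 132 with MBZ, 6783 in SUM159 cells with DMSO and 2911 with MBZ. SAA2 (ENSG00000134339, 4 exons, chr11:18239223-18248668, minus strand) had 8, 22, 689 and 314 counts in the same order. Both genes were lowest in the MDA-MB-231 DMSO library and highest in the SUM159 DMSO library, and the libraries of the lines did not overlap. With MBZ, SAA1 was 2.34-fold higher in MDA-MB-231 cells, a log2 ratio of 1.23 (interval 0.80 to 1.67), and 2.90-fold lower in SUM159 cells, a log2 ratio of -1.54 (-1.60 to -1.47). SAA2 had log2 ratios of 1.71 (0.51 to 3.11), which rests on 8 counts with DMSO, and -1.45 (-1.65 to -1.26). In SUM159 cells the pair moved by nearly the same factor, with intervals that overlapped.

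The counts of SAA1 and SAA2 cannot be fully separated, because the coding sequences were 97.0% identical and 11 of 366 bases differed. Of all 150-base windows of the SAA1 transcript, 38.8% matched SAA2 with at most 2 mismatches, and 34.2% of the SAA2 windows matched SAA1. The stretches below are from the third of 3 coding exons, at coding bases 231 to 290, and are shown because reads over them do tell the genes apart. They lie at chr11:18269717-18269776 on the plus strand for SAA1 and chr11:18245456-18245515 on the minus strand for SAA2 (GRCh38), and capitals mark the 7 of 60 bases that differ.
SAA1: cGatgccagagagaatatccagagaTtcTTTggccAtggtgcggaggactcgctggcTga
SAA2: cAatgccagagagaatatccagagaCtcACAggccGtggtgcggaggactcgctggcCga
The share of SAA1 in the pair's counts was 89.5% (Clopper-Pearson interval 80.3 to 95.3) in MDA-MB-231 cells with DMSO, 85.7% (79.2 to 90.8) with MBZ, 90.8% (90.1 to 91.4) in SUM159 cells with DMSO and 90.3% (89.2 to 91.3) with MBZ. All 4 intervals overlapped. With the counts of the pair summed, the log2 ratio was 1.29 (0.89 to 1.71) in MDA-MB-231 and -1.53 (-1.59 to -1.47) in SUM159 cells.

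ORM1 and ORM2 encode orosomucoids, or alpha-1-acid glycoproteins, plasma carriers of basic and neutral drugs. They were nearly limited to the SUM159 libraries. ORM1 (ENSG00000229314, 6 exons, chr9:114323098-114326479, plus strand) had 0 counts in both MDA-MB-231 libraries, 1582 in SUM159 cells with DMSO and 56 with MBZ. ORM2 (ENSG00000228278, 6 exons, chr9:114329869-114333251, plus strand) had 4, 0, 410 and 15 counts. These were the largest falls of the 9 genes, with a log2 ratio of -5.13 (-5.55 to -4.75) for ORM1 and -5.08 (-5.94 to -4.35) for ORM2. Among the 15674 genes compared in SUM159 cells they took places 18 and 21 from the lowest.

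The orosomucoid genes lie side by side and were 94.9% identical over the coding sequence, with 31 of 603 bases different. At most 2 mismatches to the partner were found in 34.6% of the 150-base windows of ORM1 and in 34.9% of those of ORM2. The stretches below, from coding exon 4 of 6 at coding bases 338 to 397, are shown for the same reason. They lie at chr9:114324799-114324858 for ORM1 and chr9:114331576-114331635 for ORM2, both on the plus strand of GRCh38, and capitals mark the 14 of 60 bases that differ.
ORM1: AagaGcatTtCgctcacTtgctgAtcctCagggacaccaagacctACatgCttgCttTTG
ORM2: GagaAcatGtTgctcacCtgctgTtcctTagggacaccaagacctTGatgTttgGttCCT
ORM1 held 79.4% (77.6 to 81.2) of the pair's counts in SUM159 cells with DMSO and 78.9% (67.6 to 87.7) with MBZ. The interval with MBZ contained the value with DMSO, and the summed pair had a log2 ratio of -5.12 (-5.49 to -4.78).

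CHI3L1 encodes YKL-40, a secreted chitin-binding glycoprotein without chitinase activity that macrophages and many tumor cells release. CHI3L1 (ENSG00000133048, 10 exons, chr1:203178931-203186704, minus strand) had 0 counts in both MDA-MB-231 libraries, 7603 in SUM159 cells with DMSO and 542 with MBZ. It was 17.5-fold lower with MBZ in SUM159 cells, a log2 ratio of -4.13 (-4.25 to -4.00), and took place 42 from the lowest. Against the limit of 3 counts in the MDA-MB-231 DMSO library, the SUM159 level with DMSO was at least 3556-fold higher for CHI3L1 and at least 740.0-fold higher for ORM1.

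**Figure D2:**
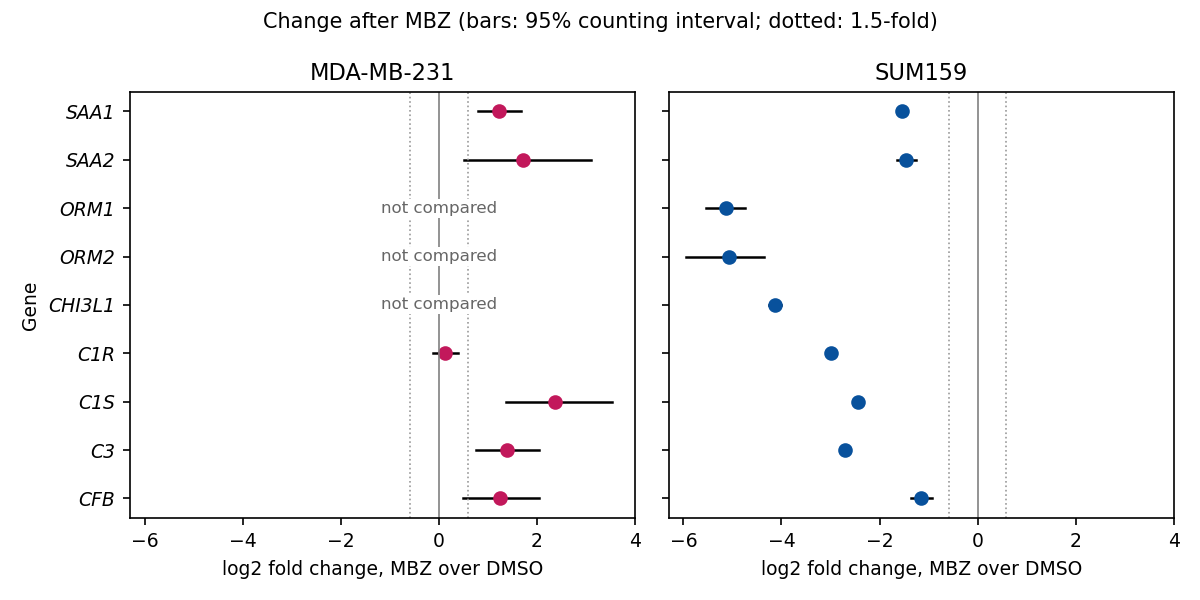
log2 ratio of MBZ over DMSO for the 9 genes within each line, with 95% counting intervals as bars and dotted lines at 1.5-fold. All 9 genes lie to the left in SUM159 cells, from -5.13 to -1.15, and the MDA-MB-231 panel holds 6 genes between 0.13 and 2.36.

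C1R and C1S encode the serine proteases of the C1 complex, in which C1r cleaves C1s and C1s cleaves C4 and C2. C1R (ENSG00000159403, 11 exons, chr12:7080214-7092540, minus strand) had 278 counts in MDA-MB-231 cells with DMSO, 252 with MBZ, 7989 in SUM159 cells with DMSO and 1244 with MBZ. C1S (ENSG00000182326, 12 exons, chr12:6988259-7071032, plus strand) had 10, 43, 4439 and 1014 counts. C1R was the only one of the 9 with more than 100 counts on average in the MDA-MB-231 libraries, and also the only one compared there that did not reach 1.5-fold. Its log2 ratio in MDA-MB-231 cells was 0.13 (-0.12 to 0.38), while that of C1S was 2.36 (1.36 to 3.54), which rests on 10 counts with DMSO. In SUM159 cells C1R had a log2 ratio of -3.00 (-3.09 to -2.91), and C1S was 5.45-fold lower, a log2 ratio of -2.45 (-2.55 to -2.35).

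The composition of the protease pair differed between DMSO and MBZ, while the shares in the amyloid and orosomucoid pairs had overlapping intervals. C1R made up 96.5% (93.7 to 98.3) of the counts of C1R and C1S in the MDA-MB-231 DMSO library and 85.4% (80.9 to 89.2) with MBZ. In SUM159 cells its share was 64.3% (63.4 to 65.1) with DMSO and 55.1% (53.0 to 57.2) with MBZ. Within each line the intervals did not overlap, and no replicate tells how far such a share varies between cultures.

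**Figure D3:**
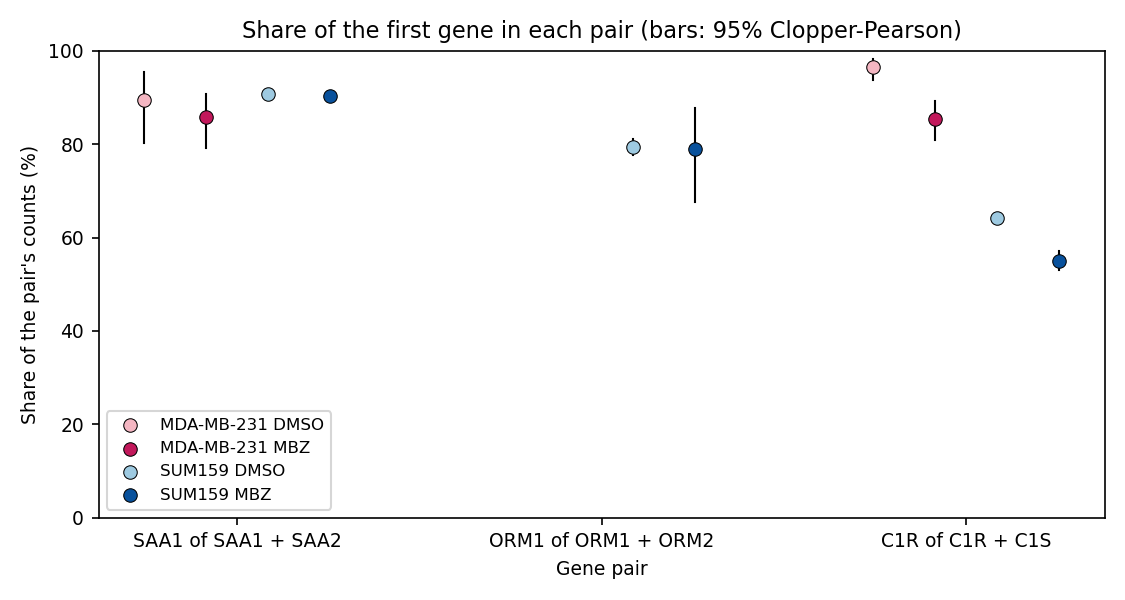
Share of the gene named first in the counts of each pair, in percent, with 95% Clopper-Pearson intervals as bars and 1 point per library. ORM1 with ORM2 is drawn for SUM159 cells only, since MDA-MB-231 cells had at most 4 counts of the pair. The C1R share went down with MBZ in both lines, from 96.5% to 85.4% and from 64.3% to 55.1%.

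C3 encodes complement component 3, and CFB factor B. C3 (ENSG00000125730, 41 exons, chr19:6677704-6730562, minus strand) had 31 counts in MDA-MB-231 cells with DMSO, 67 with MBZ, 61499 in SUM159 cells with DMSO and 11830 with MBZ. CFB (ENSG00000243649, 18 exons, chr6:31945650-31952086, plus strand, in the major histocompatibility region) had 23, 45, 526 and 296 counts. Of the 7 genes with counts in the MDA-MB-231 DMSO library, C3 had the widest gap between the lines and CFB the narrowest. The C3 level with DMSO was 2771-fold higher in SUM159 cells, and that of CFB 31.9-fold. C3 was 6.47-fold lower with MBZ in SUM159 cells, a log2 ratio of -2.69 (-2.72 to -2.67), and its log2 ratio in MDA-MB-231 cells was 1.38 (0.75 to 2.05). CFB had the smallest fall of the 9, -1.15 (-1.36 to -0.94), and a log2 ratio of 1.24 (0.49 to 2.03) in MDA-MB-231 cells.

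Several of the genes overlap others, and reads that fall on exons of both are counted for neither in the union mode of HTSeq. In the GENCODE 44 annotation, a C2 to CFB readthrough gene, listed at 0 in all 4 libraries, shares 2249 of the 5312 exonic bases of CFB. C1RL shares 672 of the 5803 exonic bases of C1R, a lncRNA with between 1 and 30 counts shares 1357 of 11577 with C3, and the SAA2-SAA4 readthrough gene, with at most 4 counts, shares 267 of 2242 with SAA2.

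The gap between the lines narrowed with MBZ for each of the 6 genes compared in both. With DMSO, the level in SUM159 cells was 140-fold that in MDA-MB-231 cells for SAA1, 119-fold for SAA2, 614-fold for C1S and 40.3-fold for C1R. With MBZ these ratios of levels were 20.3 for SAA1, 13.2 for SAA2, 21.7 for C1S and 4.55 for C1R, and they were 163 for C3 and 6.06 for CFB. All 9 genes passed the 1.5-fold rule between the lines with DMSO, each lower in MDA-MB-231 cells, where 31.0% of the 15559 genes compared were lower and 30.6% higher. The genes were not independent of this comparison, since it uses the DMSO libraries by which they were chosen.

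The region before the gene start is shown for CHI3L1 and ORM1, which had large falls in SUM159 cells. RefSeq promoter entries (GRCh38.p14, 250 bases before to 50 after the start) matched 4 of the 9 genes, CHI3L1, ORM1, CFB and C1R, the last with 2 windows. SAA1, SAA2, ORM2, C3 and C1S had no entry. The 150 bases before the start lie at chr1:203186705-203186854 on the minus strand for CHI3L1 and at chr9:114322948-114323097 on the plus strand for ORM1, and the capitals mark letters that match a motif searched.
CHI3L1: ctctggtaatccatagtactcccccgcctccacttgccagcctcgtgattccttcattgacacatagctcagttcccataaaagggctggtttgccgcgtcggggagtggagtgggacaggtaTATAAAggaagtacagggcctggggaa
ORM1: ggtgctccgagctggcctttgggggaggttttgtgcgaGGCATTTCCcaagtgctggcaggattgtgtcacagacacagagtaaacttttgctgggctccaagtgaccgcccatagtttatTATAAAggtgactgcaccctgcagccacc
The TATA box letters TATAAA, searched on both strands like all motifs, stood at -27 to -22 in CHI3L1, -29 to -24 in ORM1 and -30 to -25 in CFB, counted from the RefSeq start of each window, and in neither window of C1R. For CFB and C1R these starts lie inside the gene as placed above from GENCODE. They are present in 11.5% of the 35116 promoter windows. The NF-kB letters GGNNNTTCC, present in 20.1% of windows, stood at -112 to -104 in ORM1 and -97 to -89 in CFB. In CFB the STAT letters TTCNNNGAA (7.66% of windows) lay at -92 to -84 and overlapped that match. TTCNNNGAA was also in a C1R window, the C/EBP letters TTNNGCAA (10.5%) were in both C1R windows, the glucocorticoid receptor letters ACANNNTGT (5.37%) in CFB, where they overlapped the TATA box letters by a single base, and in C1R, and the interferon response letters GAAANNGAA (8.11%) in CFB. The stricter NF-kB letters GGACTTTCC (0.370%), TTGCGCAA for C/EBP (0.151%), TTCNNGAA for STAT (7.74%) and TGANTCA for AP-1 (7.71%) were in none of these windows. A match of letters is not a measured binding site.

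Of 8 close relatives of the 9 genes, 4 were compared in SUM159 cells and all 4 were lower, with a median log2 ratio of -2.02. SAA4, a serum amyloid A made constitutively by the liver, had 0, 0, 45 and 16 counts in the order used above, and CHI3L2, a chitinase-like protein, had 3, 4, 355 and 82. C1RL, a C1r-like protease, had 61, 162, 2787 and 738 counts, with log2 ratios of 1.68 in MDA-MB-231 and -2.23 in SUM159 cells. C2, the classical-pathway counterpart of factor B, had 22, 40, 56 and 27 counts and log2 ratios of 1.13 and -1.36, and is counted among the other complement components as well. C1RL and C2 were the relatives compared in MDA-MB-231 cells, and both were higher.

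Other acute-phase proteins did not move as a block. Of 24 listed, 13 were compared in SUM159 cells, where 8 were lower and 4 higher with a median log2 ratio of -1.46, and 6 in MDA-MB-231 cells, where 4 were higher and 1 lower with a median of 0.83. LBP, which hands bacterial lipopolysaccharide to CD14, had 1, 4, 1040 and 139 counts and a log2 ratio of -3.22 in SUM159 cells. CD14 itself had 53, 40, 477 and 110 counts, the protease trap A2M had a log2 ratio of -3.40, haptoglobin (HP) of -2.30 and the copper carrier ceruloplasmin (CP) of -1.87 in SUM159 cells. The other lower genes were ITIH3, S100A8 and S100A9. On the other side stood PTX3, a pentraxin of local inflammation, with 382, 587, 280 and 864 counts, and LCN2, an iron-siderophore binder, with 7, 26, 15 and 99. PTX3 and LCN2 were higher with MBZ in both lines, by log2 ratios of 0.89 and 1.31 for PTX3 and of 2.14 and 2.40 for LCN2. The other genes higher in MDA-MB-231 cells rest on few counts. HPX went from 1 to 20 counts there, a log2 ratio of 4.42, and ITIH4 from 12 to 17, a log2 ratio of 0.77 (interval -0.38 to 1.97). IL1RN, the interleukin 1 receptor antagonist, went from 0 to 44 counts in SUM159 cells, at least 11.8-fold higher. SERPINA1, or alpha-1-antitrypsin, had 1170, 359, 664 and 569 counts and was lower in MDA-MB-231 cells, by a log2 ratio of -1.43, and below the 1.5-fold rule in SUM159 cells at -0.54. Of 7 negative acute-phase proteins, whose plasma levels fall in inflammation, none could be compared in SUM159 cells and 1 in MDA-MB-231 cells.

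**Figure D4:**
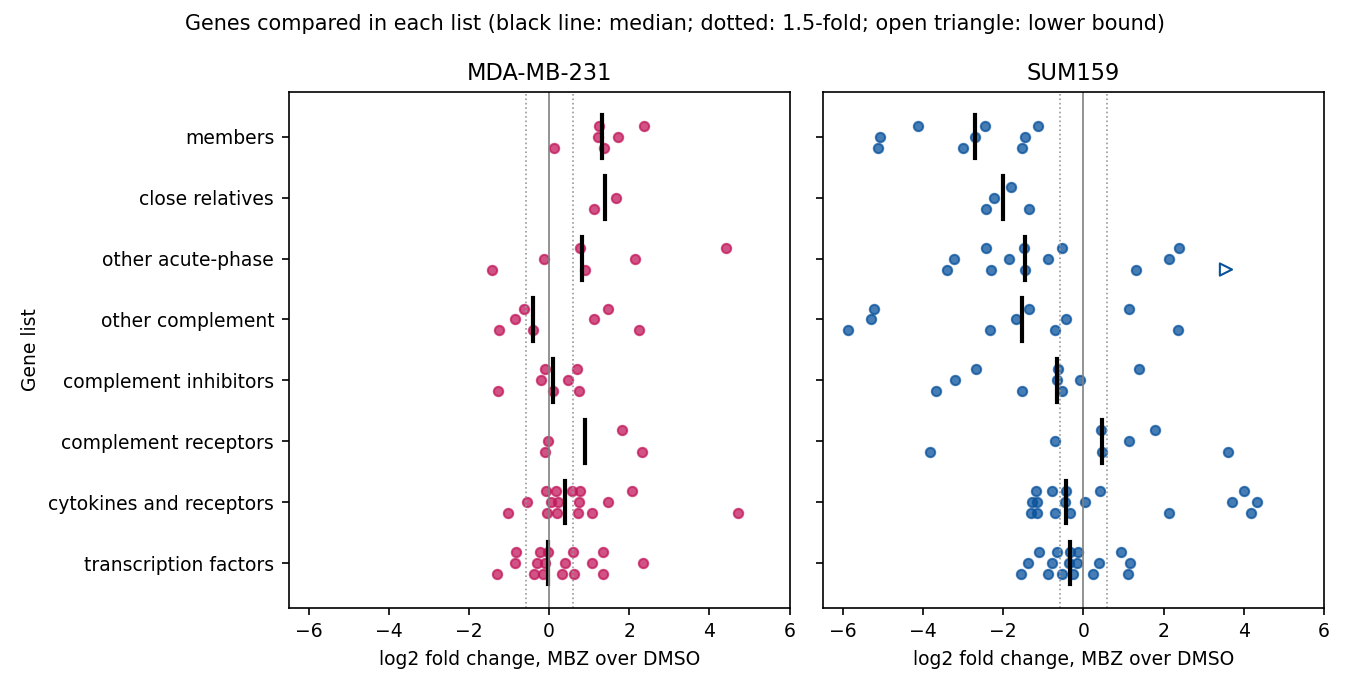
log2 ratio of MBZ over DMSO for every gene compared in 8 of the lists, within each line. Points are genes, black lines are list medians, dotted lines are at 1.5-fold and the open triangle is a lower bound for IL1RN. The 9 genes and their close relatives lie below 0 in SUM159 cells, while the other 6 lists drawn have genes on both sides of it.

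Among 24 other complement components, 10 were compared in SUM159 cells, where 7 were lower and 2 higher, with a median log2 ratio of -1.53. For MDA-MB-231, 3 of 7 were higher and 3 lower, with a median of -0.40. C4A and C4B, the next substrates of C1s, had 6, 24, 1795 and 59 counts and 4, 5, 1504 and 32 counts. Since 94.2% of their 150-base windows matched the other gene with at most 2 mismatches, they were also summed, which gave log2 ratios of 1.79 (0.73 to 3.01) in MDA-MB-231 and -5.49 (-5.81 to -5.20) in SUM159 cells. The collectin COLEC12 went from 258 to 8 counts in SUM159 cells, and the lectin-pathway protease MASP1 from 101 to 25. CFP, or properdin, which stabilizes the alternative-pathway protease, went the other way, with 677, 235, 4 and 26 counts and log2 ratios of -1.25 in MDA-MB-231 and 2.35 in SUM159 cells. The C1q chains C1QA, C1QB and C1QC, to which C1r and C1s bind, were listed at 0 in all libraries, and 11 of the 24 components had at most 3 counts in every library.

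Complement inhibitors were more often lower than higher in SUM159 cells, with 6 lower and 1 higher of 9 compared and a median log2 ratio of -0.66, but the split was 4 to 1 with scaling by total counts. SERPING1, the inhibitor of C1r and C1s, went from 63 to 6 counts in SUM159 cells, and clusterin (CLU) had 1359, 984, 4684 and 2032. CD55, which breaks up C3-cleaving enzymes on the cell surface, had 5862, 8109, 1016 and 3324 counts and was higher with MBZ in both lines, by log2 ratios of 0.74 and 1.39. In MDA-MB-231 cells 2 of 7 inhibitors were higher and 1, CD59, was lower. Of the complement receptors, 3 of 7 were higher and 2 lower in SUM159 cells, or 5 and 1 with scaling by total counts. C3AR1, the receptor for the C3a fragment, had 5, 15, 3 and 47 counts, and C5AR1, that for C5a, had 5, 21, 96 and 73. The integrin chain ITGB2, shared by complement receptors 3 and 4, had 1023, 788, 981 and 86 counts. Its log2 ratio in SUM159 cells was -3.83. The listed integrin chains ITGAX and ITGAM did not fall with ITGB2 in that line. ITGAX had 54 counts with DMSO and 231 with MBZ, a log2 ratio of 1.78. ITGAM had 39 and 66, a log2 ratio of 0.44, below the 1.5-fold rule. C5AR2 was also higher in SUM159 cells, at 69 and 189 counts and a log2 ratio of 1.14. In MDA-MB-231 cells 2 of 4 receptors, C3AR1 and C5AR1, were higher and none was lower.

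Several cytokines known to induce acute-phase genes were higher with MBZ in SUM159 cells, and several of their receptors were lower. Of 17 cytokine and receptor genes compared there, 5 were higher, all of them ligands, and 7 lower, all of them receptors, or 6 and 5 with scaling by total counts. IL6 had 44, 953, 682 and 3739 counts, with log2 ratios of 4.71 in MDA-MB-231 and 2.14 in SUM159 cells. In SUM159 cells LIF went from 95 to 2168 counts, IL1B from 87 to 2183, IL1A from 33 to 539 and IL11 from 5 to 102. The receptor subunit IL6ST, or gp130, used by IL6, IL11 and LIF, had a log2 ratio of 1.06 in MDA-MB-231 and -0.70 in SUM159 cells, and IL1R1 one of 0.78 and -1.17. In MDA-MB-231 cells 7 of 16 genes of this list were higher and 1 was lower, with a median log2 ratio of 0.39.

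Of 17 transcription factors and feedback genes of the acute phase compared in each line, 3 were higher and 6 lower in SUM159 cells, and in MDA-MB-231 cells 6 were higher and 3 lower. With scaling by total counts the split was 4 to 3 in SUM159 and 7 to 1 in MDA-MB-231 cells. Over all genes compared, the shares to set beside this and the other lists were 21.5% higher and 21.7% lower in SUM159 cells. In MDA-MB-231 cells these shares were 18.3% and 15.8%. CEBPD, a C/EBP factor induced in inflammation, had 701, 473, 5826 and 2761 counts and a log2 ratio of -1.39 in SUM159 cells. STAT3, which carries the IL6 signal, had a log2 ratio of -0.79 there. NFKBIZ, an atypical IkB, had a log2 ratio of 1.16 and TNFAIP3, an NF-kB feedback inhibitor, of 1.10 in SUM159 cells. TNFAIP3 was also higher in MDA-MB-231 cells, by 2.33 on the log2 scale. The glucocorticoid receptor NR3C1 had a log2 ratio of 0.71 in MDA-MB-231 and -0.43 in SUM159 cells.

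Marker lists of other cell types were measured beside these results. The summed level of 12 hepatocyte markers was 10.2, 9.84, 52.9 and 19.4 CPM in the order used above, most of it from CPS1, which went from 843 to 366 counts in SUM159 cells. ALB, the defining hepatocyte product, had at most 2 counts in any library, and 7 of the 12 had at most 3 counts in every library. The 13 macrophage and leukocyte markers summed to 6.71, 8.52, 101 and 31.3 CPM, and of 6 compared in SUM159 cells 3 were lower and 2 higher. MARCO went from 897 to 275 counts there and PTPRC from 216 to 60, CD163 from 13 to 74 and CSF1R from 21 to 54, while TYROBP, C1QA, C1QB and C1QC were listed at 0 in all libraries. The 7 fibroblast markers summed to 17.3, 11.7, 317 and 83.7 CPM, and of 5 compared in SUM159 cells 4 were lower and none higher. PDGFRB went from 2235 to 281 counts there and PDGFRA from 1026 to 306, while DCN had 335 and 508. The macrophage and fibroblast sums were thus highest in the SUM159 DMSO library and lower with MBZ, as the 9 genes were, and their part in the result was not tested. The median level of 15 G2/M genes was 185, 102, 21.2 and 89.4 CPM. It was lowest in the SUM159 DMSO library, and in SUM159 cells all 15 were higher with MBZ while 13 of 15 fell below DMSO by the same rule in the other line, or 9 of 15 when scaled by total counts. The part of the cell cycle in the result was not tested.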

How the data were processed

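RNA-seq of 4 libraries, 1 per condition, was analysed from gene counts. The authors mapped 150-base paired reads of poly(A) RNA to GRCh38 and deposited whole-number counts per gene, not normalized. The submitters' processing notes name STAR 2.5, HTSeq 0.6.1 (union mode in the methods) and edgeR 3.16.5. The annotation release and the strand setting were not given in the sources used here, so antisense and overlapping genes carry that limit. All columns of the table were used. The labels gave the line and treatment of each sample.

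Symbols of 58207 of 58735 genes and positions came from GENCODE 44, and SOD2, an acute-phase gene, matched no row. Log2 CPM came from edgeR 4.0.16 under R 4.3.3 (TMM, prior count 0.125, or 2 for the nearest genes). Counting intervals are 95% Clopper-Pearson bounds for the part of each gene's counts in the MBZ library, from scipy 1.17.1 in Python 3.11.15. The libraries carried no stated molecular identifiers, so reads are not independent molecules and intervals cover counting error only. A gene at 0 was compared with 3 counts. The functions were tested on simulated data. With 1 library per condition no test was run and no p-value is given.

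The 9 genes and all lists were chosen with earlier results of these data known, and the G2/M list after the values were seen. Named genes are the 9, their relatives, list genes averaging 10 counts or more in a line or at most 3 counts in every library, and the 2 genes nearest to each of the 9. The alternatives were DESeq2 1.42.0 size factors, total counts, TMM over 4 libraries, a 2-fold rule, other count minimums, a prior count of 2, an interval that excludes 0 and summed paralogs.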

Additional observations from a re-analysis of the deposited data

Results flagged for a closer look

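Of the 64 genes of the 9 and their pathway lists that were compared in both lines, 19 had a counting interval wholly above 0 in 1 line and wholly below 0 in the other. Of these, 18 were higher with MBZ in MDA-MB-231 and lower in SUM159 cells and 1 the reverse, against 9.40% and 10.6% of all 13733 genes compared in both. The lists were written with earlier results of these data known, so these shares are background only, and with high counts such intervals leave out 0 for small changes. The count also depends on scaling. In MDA-MB-231 cells the interval began at 0.035 for CD46, 0.024 for IFNGR1 and 0.026 for SOCS1. DESeq2 size factors shifted the median log2 fold change over all genes there by -0.040. In SUM159 cells the interval of C5AR1 ended at -0.26, and scaling by total counts shifted that median by 0.301. The difference between the lines was not tested, since each condition had 1 library. The values below are the log2 fold change in MDA-MB-231 cells minus that in SUM159 cells.

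Of the 9 genes, SAA1 differed by 2.76, SAA2 by 3.16, C3 by 4.07, CFB by 2.38 and C1S by 4.81, each higher with MBZ in MDA-MB-231 and lower in SUM159 cells. C1R also lay on opposite sides of 0 but its counting interval in MDA-MB-231 cells included 0 with the main scaling. The complement genes C1RL, C2 and C4A differed the same way by 3.91, 2.49 and 7.49, with the reads of C4A not fully separable from those of C4B. CD46, a surface inhibitor of C3b, differed by 0.76, with a log2 fold change of only 0.099 in MDA-MB-231 cells, and the C5a receptor C5AR1 by 3.02.

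The receptor genes IL6R, IL6ST, IL1R1, IFNGR1 and NR3C1 differed by 2.27, 1.76, 1.95, 1.49 and 1.15. The regulators SOCS1, CEBPB and RELB differed by 1.73, 1.5 and 2.22. For CEBPB the log2 fold change in SUM159 cells was -0.16 and became 0.14 with scaling by total counts. CFP, or properdin, was the 1 gene of the 19 with the reverse pattern, at -3.61.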

How the results depend on the processing

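No paired analysis was possible by replicate number, because every library has the number 1. A model of line and treatment, with the lines as 2 pairs, could be fitted and was left out by choice, since the 9 genes were chosen on the same contrast. The counts of higher and lower genes among the 9 were within 1.5 times their main value in 28 of 30 repeats. With a mean of at least 100 counts, 1 of the 9, SAA1, remained higher in MDA-MB-231 cells in place of 5, since fewer genes were compared. With every gene of at least 1 count, 1 of the 9, ORM2 at 4 and 0 counts, became lower in MDA-MB-231 cells. Of 66 log2 fold changes of the 9 genes under other settings, 58 stayed within the counting interval of the main value, 8 did not, all with scaling by total counts, and none reversed. That scaling shifted the median over all genes compared by 0.265 for MDA-MB-231 and 0.301 in SUM159 cells, and the 9 genes by 0.263 to 0.266 and 0.300 to 0.301. C1R in MDA-MB-231 cells then had a log2 fold change of 0.40, still under 1.5-fold. Its main interval began at -0.12, so whether that interval includes 0 depends on the scaling. Of 180 list counts, 166 were within 1.5 times of the main one, and for the pathway lists described, a split is given beside the list where the share of higher genes among the higher and lower ones moved by over 10 percentage points. For ORM1, ORM2 and CHI3L1 in MDA-MB-231 cells, changes under the counting limit of 3 counts were not detectable at this depth.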

Other observations

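The genes whose pattern over the 4 libraries was nearest to that of each of the 9 are given as a description, with likeness measured as the Euclidean distance between log2 CPM centred over the 4 libraries, among 12407 genes averaging 50 counts or more. The distances rest on 4 points that share the same libraries. The log2 CPM used for them had a prior count of 2. That prior count sets the value of a gene at 0 counts. This holds for ORM1 and CHI3L1 in both MDA-MB-231 libraries and for ORM2 in the one with MBZ. Their distances and nearest genes therefore depend on it. The nearest gene to ORM1 was APOE, an apolipoprotein, with 53, 71, 36611 and 1346 counts in MDA-MB-231 DMSO, MDA-MB-231 MBZ, SUM159 DMSO and SUM159 MBZ, at a distance of 0.61. CADM3, a cell adhesion molecule, was nearest to CHI3L1 with 0, 0, 5615 and 482 counts at a distance of 0.36. IL20RB, a subunit of receptors for interleukin 20 family cytokines, was nearest to SAA1 with 10, 20, 1189 and 464 counts at 0.12. ADGRE1 was nearest to CFB at 0.11, EDA to SAA2 at 0.16, PCOLCE, an enhancer of procollagen processing, to C1R at 0.52, LBP to C1S at 0.91, ENPP2 to C3 at 1.01 and F2RL2 to ORM2 at 1.13. C3 was itself the next nearest gene to CHI3L1, at 1.58, and the chemokine CCL5 the next nearest to C1S, at 0.97 and with 11, 42, 2035 and 884 counts.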
